A study of Mus musculus with 6 samples.

Results

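The 34 genes described here belong to the integrated stress response and the unfolded protein response, and they were picked by symbol from the 23793 loci of the deposited expression table. They form 2 arms of 17 genes each. The Atf4 arm holds the transcription factor Atf4, its relatives and its amino acid genes, and the endoplasmic reticulum (ER) arm holds chaperones, stress sensors and degradation factors of that compartment. Each symbol matched 1 locus, and 33 of the 34 were tested. A test needed values of 1 FPKM or more in 3 or more libraries, which Atf3 did not have. FPKM counts fragments scaled by transcript length and by sequencing depth, so levels can be set side by side between genes.

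RNA came from the cerebellum of mice at postnatal day 0. The conditional knockout (cKO) group was 3 libraries of genotype Zeb2 f/f; hGFAP-cre, and the control group was 3 libraries of genotype Zeb2 f/+; hGFAP-cre. The hGFAP-cre transgene, active in glia and in progenitors of neurons, was thus present in both groups, and the controls carried 1 floxed allele of the transcription factor gene Zeb2 rather than being wild type. The labels do not say whether a library is 1 animal or a pool, and the p-values below reflect how far libraries of a group differ, which may be technical.

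Cells sense trouble with protein supply through these pathways. When amino acids run short or proteins misfold in the ER, kinases such as PERK (gene Eif2ak3) phosphorylate translation factor eIF2. This slows general translation and favours translation of the Atf4 mRNA, and Atf4 then turns on genes for amino acid synthesis, amino acid import and negative feedback. In parallel, Atf6 and IRE1 (gene Ern1), which sense stress in the ER, turn on ER chaperones and degradation factors, IRE1 through splicing of Xbp1 mRNA. Phosphorylation, Atf4 protein and Xbp1 splicing are not seen in locus-level FPKM.

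The arms are known for different short promoter elements, so their promoters were read for them. RefSeq promoter windows of 300 bases (build GRCm38.p6, 250 bases before the start site and 50 from it on) were at hand for 30 of the 34 members. The core of the C/EBP-ATF response element to which Atf4 binds was searched as TGATGNAA on both strands. It was found in 5 of the 16 Atf4-arm members with a window (31.2%: Asns, Atf3, Chac1, Slc7a11 and Trib3), in 1 of the 14 ER-arm members (Herpud1) and in 4.51% of 27025 genes. The ER stress response element was searched as CCAAT, a gap of 9 bases and CCACG. It was found in 6 of the 14 ER-arm members (42.9%: Calr, Canx, Creld2, Dnajc3, Hsp90b1 and Hspa5), in 0 of the 16 Atf4-arm members and in 0.137% of all genes. Its shorter form, ATTGG, 1 base and CCACG, was found in Herpud1 and in 0.0444% of all genes, and the unfolded protein response element TGACGTGG in 0 members and 0.714% of all genes. The forms do not overlap in any of these windows, and a match of letters is a description, not a shown binding site. The windows below are examples of each arm, 5′ to 3′ on the strand of the gene, with the matches in capitals.

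Slc7a11 (chr3:50443564-50443863, minus strand): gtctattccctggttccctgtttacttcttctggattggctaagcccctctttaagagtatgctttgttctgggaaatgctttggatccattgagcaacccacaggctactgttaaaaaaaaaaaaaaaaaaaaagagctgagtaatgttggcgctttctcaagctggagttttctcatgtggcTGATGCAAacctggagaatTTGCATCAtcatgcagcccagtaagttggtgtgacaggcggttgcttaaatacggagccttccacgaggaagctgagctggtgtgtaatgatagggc

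Chac1 (chr2:119350992-119351291, plus strand): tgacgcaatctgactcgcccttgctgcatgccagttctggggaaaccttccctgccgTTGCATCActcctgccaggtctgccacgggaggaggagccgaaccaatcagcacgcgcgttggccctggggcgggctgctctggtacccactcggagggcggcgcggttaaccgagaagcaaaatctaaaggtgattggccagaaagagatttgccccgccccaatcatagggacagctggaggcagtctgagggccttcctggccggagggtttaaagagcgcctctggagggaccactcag

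Asns (chr6:7693160-7693459, minus strand): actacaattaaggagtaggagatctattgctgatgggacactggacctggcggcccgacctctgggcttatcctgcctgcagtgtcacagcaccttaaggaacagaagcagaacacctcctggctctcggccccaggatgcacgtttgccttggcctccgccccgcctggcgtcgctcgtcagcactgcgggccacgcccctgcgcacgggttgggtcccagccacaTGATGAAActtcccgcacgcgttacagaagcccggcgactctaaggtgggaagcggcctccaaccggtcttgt

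Hspa5 (chr2:34771840-34772139, plus strand): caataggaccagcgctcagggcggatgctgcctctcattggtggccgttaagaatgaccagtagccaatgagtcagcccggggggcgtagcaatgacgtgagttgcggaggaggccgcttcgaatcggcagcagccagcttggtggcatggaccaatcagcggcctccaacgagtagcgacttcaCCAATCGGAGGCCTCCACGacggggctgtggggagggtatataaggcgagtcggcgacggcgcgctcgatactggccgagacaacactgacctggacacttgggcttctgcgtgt

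Calr (chr8:84846882-84847181, minus strand): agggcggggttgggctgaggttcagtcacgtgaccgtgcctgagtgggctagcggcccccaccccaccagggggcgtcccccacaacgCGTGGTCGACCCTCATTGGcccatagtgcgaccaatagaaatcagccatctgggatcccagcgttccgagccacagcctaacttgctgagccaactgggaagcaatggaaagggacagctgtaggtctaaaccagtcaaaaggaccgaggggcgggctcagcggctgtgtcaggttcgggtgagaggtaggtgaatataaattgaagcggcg

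Creld2 (chr15:88819396-88819695, plus strand): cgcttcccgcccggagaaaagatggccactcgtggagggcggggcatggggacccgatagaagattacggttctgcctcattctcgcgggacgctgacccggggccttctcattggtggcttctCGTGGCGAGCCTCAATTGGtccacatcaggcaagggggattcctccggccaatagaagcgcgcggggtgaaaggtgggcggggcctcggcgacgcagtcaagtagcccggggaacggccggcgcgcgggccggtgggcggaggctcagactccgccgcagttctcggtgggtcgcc

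In Slc7a11, the member with the highest log2 fold change below, a pair of matches stood 66 and 47 bases before the start site, counted to the first base of each. That window lies inside the RefSeq span of the gene (50364936 to 50499087, minus strand), away from its upstream end. The distances therefore hold for the start site of that window only. In Hspa5 the ER stress response element began 65 bases before the start site. The window of Phgdh, the member with the lowest log2 fold change, held none of the searched elements, which says only that these letters are not in it.

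The targeted gene and the libraries were checked first. Zeb2 stood at 6.19, 3.89 and 5.81 FPKM in cKO, against 11.4, 9.52 and 7.995 FPKM in controls, with every cKO value below every control value (log2 fold change -0.77, limma adjusted p = 0.107, exact two-sided permutation p = 0.1, the smallest that 3 against 3 can give). It therefore did not pass the threshold of 0.05. Sex could not be told apart from genotype: Xist, the RNA of the inactive X, was at 142 to 147 FPKM in cKO and 0.331 to 0.515 FPKM in controls, and the Y-linked Ddx3y at no more than 0.0286 FPKM in cKO and at least 15.2 FPKM in controls. Cerebellar markers were plain, with Zic1 at 271 and 290.1 FPKM and Barhl1 at 49.6 and 55.1 FPKM on average in cKO and controls. Of 12 such markers 5 had positive and 7 negative log2 fold changes, and 0 passed the threshold (limma). En1, Skor2, Calb1 and Foxp2 were at 0.27, 0.23, 0.21 and 0.16, and Atoh1, Pax6 and Lhx5 at -0.45, -0.34 and -0.27. Read numbers per library are unknown. The library cKO 3 stood apart from the other cKO libraries, being as close to the controls (r of up to 0.956 across loci) as to cKO 1 and cKO 2 (0.952 each), and values without it are given where it moves the arms or a member most.

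No member passed the threshold of 0.05 when the 13612 loci were adjusted together (limma, Benjamini-Hochberg), as 78 loci did (0.573%). Before adjustment, 12 members had a limma p under 0.05. Of these 10 were higher in cKO (30.3% of 33 tested, against 7.82% of all loci) and 2 were lower (against 9.79% of all loci). The higher ones were Slc7a11, Slc7a5, Slc3a2 and Trib3 of the Atf4 arm and Hspa5, Calr, Manf, Xbp1, Sdf2l1 and Hyou1 of the ER arm, and the lower ones were Phgdh and Shmt2. The count of 12 was 5 without control 3, 7 without cKO 2 and 7 in the 4 libraries with the earlier sample records, so it depends on single libraries. In 10 members every cKO library lay above every control library (10.3% of all loci), and in 2 every one lay below (13.6% of all loci). Positive log2 fold changes were found in 11 of 16 Atf4-arm members and 15 of 17 ER-arm members, against 47% of all loci.

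Phgdh, Slc7a11 and Slc7a5 came closest to the threshold, at adjusted p of 0.0722, 0.0664 and 0.0722. They passed in 2 alternative settings. With the 227 loci of small RNAs left out, their adjusted p was 0.026, 0.028 and 0.0359, and 0.956% and 1.47% of all loci were called higher and lower. With robust variance estimation it was 0.0181, 0.0223 and 0.0344. In the other 16 settings 0 members passed, Slc7a11 not being tested in the one that asks for a mean of at least 5 FPKM.

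**Figure D1:**
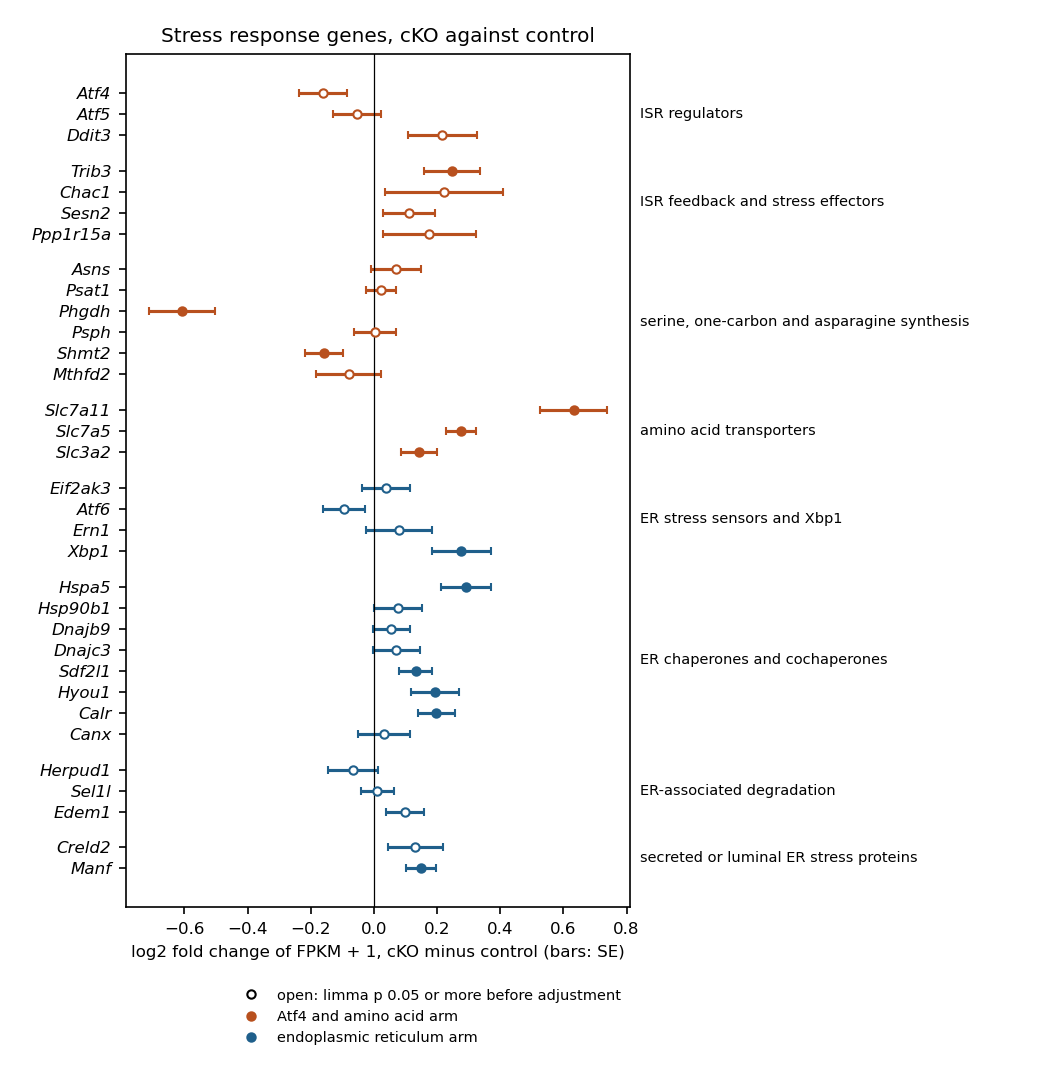
Log2 fold changes of FPKM + 1, cKO minus control, of the 33 tested members (x axis; bars are SE), grouped by role down the page, with filled points for a limma p under 0.05 before adjustment. Phgdh lies at -0.61 and Slc7a11 at 0.63, while 15 of the 17 ER-arm points lie right of 0.

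The amino acid transporters were the group of the Atf4 arm whose members all had a higher value in every cKO library than in any control library. Slc7a11, the cystine-glutamate exchanger that brings in cystine for glutathione (GRCm38 chromosome 3, 50364936 to 50499087), was at 2.65, 3.36 and 3.05 FPKM in cKO, against 1.68, 1.31 and 1.80 FPKM in controls. The lowest cKO value was above the highest control value, and the mean was 1.89 times that of controls (log2 fold change 0.63, SE 0.11). The log2 fold change is that of FPKM + 1, which understates the change of a gene at this low level: it was 0.885 at a pseudocount of 0.1. Slc7a5, the large neutral amino acid transporter LAT1 (chromosome 8, 121881146 to 121907686), was at 78.2, 75.3 and 79.1 FPKM in cKO, against 65.8, 62.0 and 63.8 FPKM in controls. Here the replicates lay close together, and the difference of 1.21 times (log2 fold change 0.28, SE 0.05) exceeded their spread. Slc3a2, the heavy chain that partners both transporters at the membrane, was at 63.9, 71.6 and 67.2 FPKM in cKO, against 62.7, 61.4 and 59.1 FPKM in controls (log2 fold change 0.14, SE 0.06, adjusted p = 0.266). Its groups were apart by little, cKO 1 lying just above control 1. The direction of the 3 transporters held in all alternatives tried, with log2 fold changes of 0.55 to 0.885 for Slc7a11, 0.256 to 0.298 for Slc7a5 and 0.101 to 0.182 for Slc3a2.

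Markers of vessels and meninges were measured beside the transporters, and 0 of them passed the threshold (limma, against 0.573% of all loci). A limma p under 0.05 before adjustment was found in 7, all higher in cKO. These were 4 of 12 endothelial genes (33.3%) and 3 of 9 meningeal genes (33.3%), against 7.82% of all loci. Positive log2 fold changes were found in 47% of all loci. LAT1 is known from the endothelium of brain vessels, and 11 of 12 endothelial genes had positive log2 fold changes (summed level 152 to 161.5 FPKM in cKO and 115 to 140.3 FPKM in controls), with Mfsd2a, Slc2a1 and Esam at 0.83, 0.29 and 0.14 and the most abundant, Cldn5, at 34.2 and 30.8 FPKM on average in cKO and controls. Mfsd2a averaged 27.9 FPKM in cKO and 15.5 FPKM in controls. The endothelial markers Pecam1, Tek, Flt1 and Kdr were at 0.06, 0.08, 0.02 and -0.007, each with overlapping groups. Meningeal fibroblast genes had positive log2 fold changes in 9 of 9 tested, with Ptgds, Foxc1 and the most abundant, Igf2, at 1.01, 0.33 and 0.68. Their summed level was 59.7, 93.3 and 35.5 FPKM in cKO 1, 2 and 3, against 49.3, 21.1 and 21.2 FPKM in controls 1, 2 and 3. The groups overlapped, the value of cKO 3 lying below that of control 1. In whole tissue, a change in the number of cells of a type and a change in RNA per cell cannot be told apart. The part of these cells in the transporter values was not tested.

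**Figure D2:**
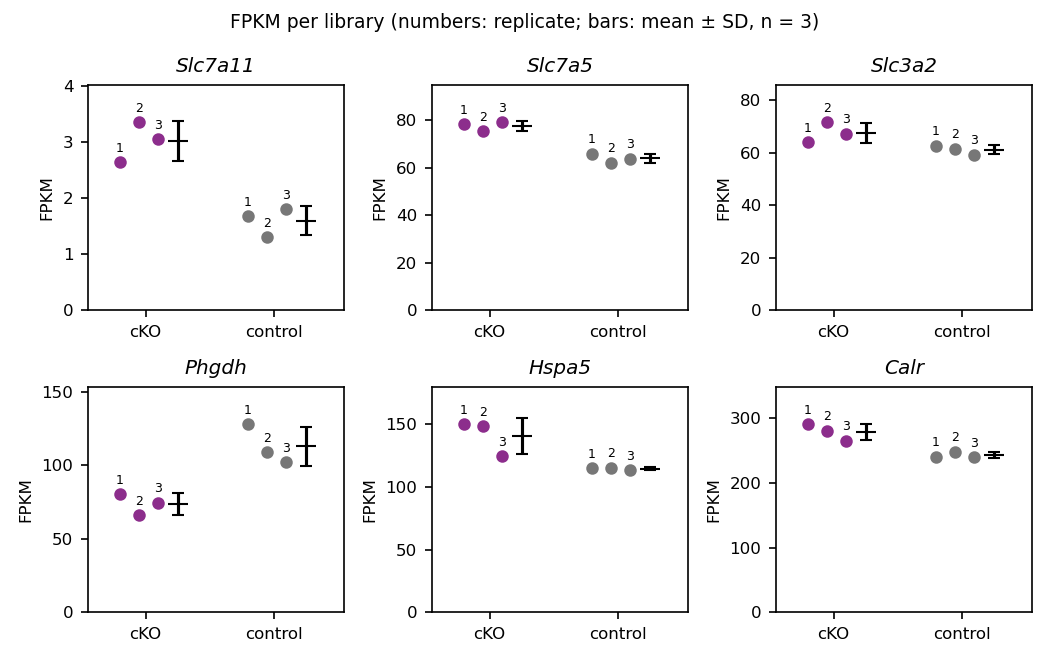
FPKM of 3 transporters (upper row) and of Phgdh, Hspa5 and Calr (lower row) in each library, with cKO in purple left of control in grey, replicate numbers above the points and mean ± SD (n = 3) beside them. All y axes start at 0, and in each of the 6 genes the groups do not overlap, Phgdh being lower in cKO and the others higher.

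In serine synthesis the groups were apart at the first step, without passing the threshold, and overlapped at the later steps. Phgdh, phosphoglycerate dehydrogenase, which commits a glycolytic intermediate to serine and is abundant in radial glia and astrocytes (chromosome 3, 98313171 to 98339969), was at 80.6, 66.2 and 74.5 FPKM in cKO, against 127.9, 109.1 and 102.0 FPKM in controls. The highest cKO value stayed under the lowest control value, and the cKO mean was 65.3% of the control mean (log2 fold change -0.61, SE 0.11, limma adjusted p = 0.0722). The next enzyme, the aminotransferase Psat1, was at 67.7, 70.8 and 68.4 FPKM in cKO, against 68.1, 69.5 and 65.9 FPKM in controls, with overlapping groups (log2 fold change 0.02, SE 0.05). The phosphatase Psph, the last step, averaged 14.3 ± 0.849 FPKM in cKO and 14.3 ± 0.770 FPKM in controls (SD, n = 3 each). As a ratio within each library, Psat1 over Phgdh was 0.942 ± 0.117 in cKO and 0.605 ± 0.0631 in controls, without overlap.

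The mitochondrial folate enzymes and asparagine synthetase had smaller log2 fold changes than Phgdh. Shmt2, which makes glycine from serine in mitochondria, was at 28.5, 32.8 and 30.8 FPKM in cKO, against 33.7, 34.7 and 34.5 FPKM in controls (log2 fold change -0.16, SE 0.06, adjusted p = 0.252). The groups did not overlap, and the difference was small. Mthfd2, the next mitochondrial folate enzyme, averaged 9.37 ± 1.38 FPKM in cKO and 9.91 ± 0.679 FPKM in controls. Asns, asparagine synthetase and a textbook Atf4 target, averaged 34.3 ± 3.66 FPKM in cKO and 32.5 ± 0.969 FPKM in controls, and its log2 fold change of 0.07 became -0.011 without cKO 3, the library with its highest value (38.4 FPKM).

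Glial and proliferation markers were measured beside Phgdh. Of 14 genes of Bergmann glia and astroglia 8 had negative log2 fold changes, and their summed level was 3079 to 3341 FPKM in cKO and 3536 to 3636 FPKM in controls. Of those with a p under 0.05 before adjustment, Gdf10, Slc1a3, Vim and Dbi were at -1.26, -0.81, -0.74 and -0.21, and Aldoc and Gja1 at 0.68 and 0.52, with 0 past the threshold. These were 4 lower genes of 14 (against 9.79% of all loci) and 2 higher ones (14.3%, against 7.82% of all loci). The most abundant marker, Fabp7, averaged 1581 FPKM in cKO and 1577 FPKM in controls. All 15 proliferation genes had negative log2 fold changes (408 to 444 FPKM summed in cKO and 556 to 623 FPKM in controls), and Ccnd1, Aurkb, Mcm4, Cdc20, Top2a and Bub1 passed over all loci. That was 6 of 15, while 0.573% of all loci passed in either direction. Before adjustment, all 15 had a limma p under 0.05, against 9.79% of all loci lower in cKO. The most abundant, Pcna, was at -0.40. Whether these cells account for the lower Phgdh was not tested.

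The transcription factors of the arm gave no common direction. Atf4 itself was abundant, at 97.5, 105.3 and 113.9 FPKM in cKO, against 109.9, 123.2 and 120.8 FPKM in controls. The groups overlapped through cKO 3 and control 1, and the log2 fold change was -0.16 (SE 0.08, adjusted p = 0.335). Ddit3, which encodes the pro-apoptotic factor CHOP, was at 17.8, 17.6 and 14.5 FPKM in cKO, against 12.7, 16.0 and 13.8 FPKM in controls (log2 fold change 0.22, SE 0.11, adjusted p = 0.36). Atf5, an Atf4 relative under the same kind of translational control, averaged 11.7 ± 0.184 FPKM in cKO and 12.3 ± 1.25 FPKM in controls. Atf3, a factor induced early in stress, stayed low at 0.428 to 0.6205 FPKM in cKO and 0.440 to 0.666 FPKM in controls, and it was not tested.

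The feedback and effector genes all had positive log2 fold changes, with no call among them. Trib3, a pseudokinase that restrains Atf4 and CHOP, was at 1.31, 1.51 and 1.62 FPKM in cKO, against 0.962, 1.24 and 1.06 FPKM in controls. Its groups were apart by a small margin at a low level (log2 fold change 0.25, SE 0.09, adjusted p = 0.232). Chac1, which degrades glutathione, was at 4.67, 4.21 and 7.75 FPKM in cKO, against 4.45, 4.59 and 4.35 FPKM in controls. cKO 3 stood far above all other libraries, cKO 1 just above the controls and cKO 2 below them, and the log2 fold change of 0.22 became -0.00612 without cKO 3. Ppp1r15a (GADD34), the phosphatase subunit that reverses eIF2 phosphorylation, averaged 8.86 ± 1.38 FPKM in cKO and 7.76 ± 1.38 FPKM in controls. Sesn2, a sestrin that restrains mTORC1 signalling, averaged 4.74 ± 0.307 FPKM in cKO and 4.32 ± 0.417 FPKM in controls. Ppp1r15a and Atf3 also behave as immediate early genes, and of 12 such genes tested 10 had positive log2 fold changes (83.3%, against 47% of all loci). Fos, Klf4 and Ier3 were at 0.46, 0.27 and 0.25, with 0 genes past the threshold. Before adjustment, 2 had a limma p under 0.05, each higher in cKO (16.7%, against 7.82% of all loci). The most abundant immediate early gene, Jun, averaged 28.2 FPKM in cKO and 29.6 FPKM in controls (log2 fold change -0.07).

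**Figure D3:**
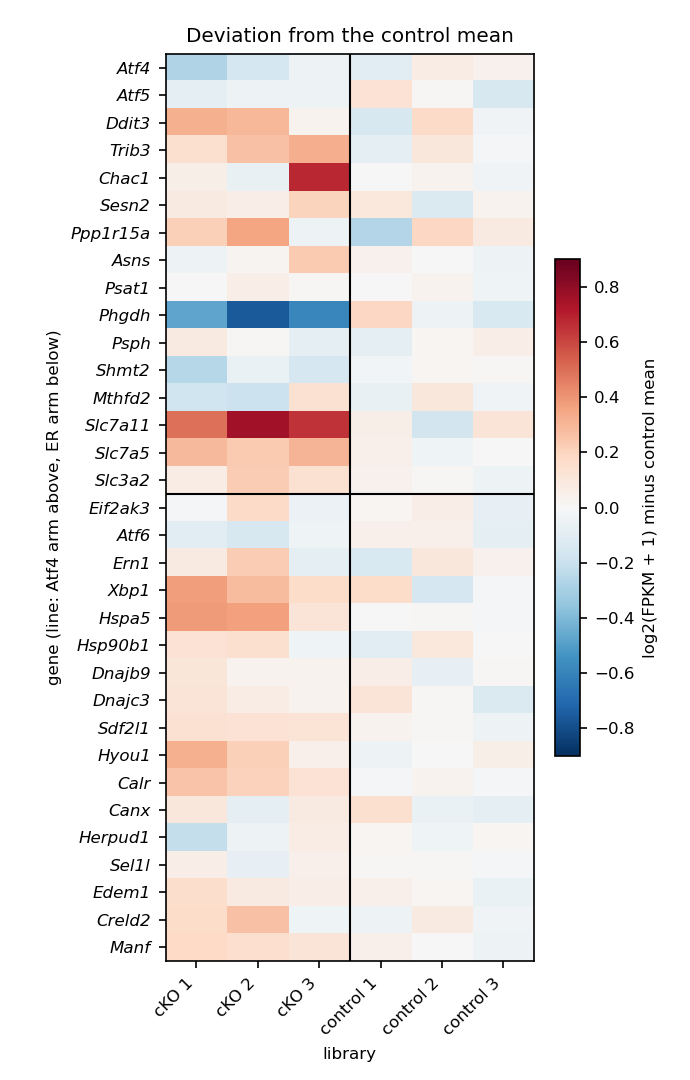
Deviation of log2(FPKM + 1) from the control mean for the 33 tested members (rows) in each library (columns), red above and blue below, with the Atf4 arm above the horizontal line and the ER arm under it. Phgdh and Slc7a11 deviate in all 3 cKO libraries, Chac1 most in cKO 3, and Hspa5 and Hyou1 more in cKO 1 and 2 than in cKO 3.

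In the ER arm, the chaperones leaned together. All 8 chaperone and cochaperone genes had positive log2 fold changes, 0.03 to 0.29. Hspa5 (BiP), the master chaperone of the ER lumen that also holds the sensors inactive (chromosome 2, 34772090 to 34776529), was at 150.1, 148.7 and 124.6 FPKM in cKO, against 115.2, 115.6 and 113.4 FPKM in controls. The controls lay within a narrow band and all cKO libraries above it, cKO 3 by the least (log2 fold change 0.29, SE 0.08, adjusted p = 0.148). Calr, the calcium-binding lectin chaperone calreticulin and the most abundant member (chromosome 8, 84842088 to 84846931), was at 290.0, 280.4 and 264.8 FPKM in cKO, against 240.1, 248.0 and 239.3 FPKM in controls (log2 fold change 0.20, SE 0.06, adjusted p = 0.172). Again no values overlapped, and cKO 3 was the lowest of its group.

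The other lumenal chaperones differed less. Hyou1, a large Hsp70-related chaperone, was at 30.0, 27.9 and 24.7 FPKM in cKO, against 23.1, 23.8 and 24.8 FPKM in controls, so that cKO 3 lay inside the control range (log2 fold change 0.19, SE 0.08, adjusted p = 0.264). Sdf2l1, a partner of BiP, stood at 8.65, 8.62 and 8.58 FPKM in cKO, against 7.99, 7.83 and 7.52 FPKM in controls (log2 fold change 0.13, SE 0.05, adjusted p = 0.264). Its groups were apart in spite of the small difference. Hsp90b1 (GRP94), the Hsp90 of the ER, averaged 150.3 ± 10.6 FPKM in cKO and 142.3 ± 9.38 FPKM in controls, a difference within the spread. Canx, the membrane-bound relative of Calr, averaged 97.2 ± 6.90 FPKM in cKO and 95.2 ± 8.44 FPKM in controls. The J-domain cochaperones of BiP, Dnajb9 and Dnajc3, had log2 fold changes of 0.06 and 0.07 with overlapping groups.

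The sensors overlapped between the groups. Eif2ak3 averaged 11.9 ± 1.09 FPKM in cKO and 11.5 ± 0.572 FPKM in controls, a spread wider than the difference. Ern1 averaged 4.06 ± 0.541 FPKM in cKO and 3.79 ± 0.402 FPKM in controls, and Atf6 averaged 5.36 ± 0.234 FPKM in cKO and 5.80 ± 0.352 FPKM in controls. Atf6 and the degradation gene Herpud1 were the ER-arm members with negative log2 fold changes (-0.10 and -0.07). Xbp1, the factor spliced by IRE1, was at 33.7, 31.4 and 28.9 FPKM in cKO, against 28.8, 22.9 and 25.5 FPKM in controls (log2 fold change 0.28, SE 0.09, adjusted p = 0.214). The gap between its groups was the distance from 28.90 FPKM in cKO 3 to 28.82 FPKM in control 1.

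Degradation and secreted factors completed the arm. Herpud1, which links the retrotranslocation machinery to the proteasome, averaged 16.2 ± 1.69 FPKM in cKO and 17.0 ± 0.380 FPKM in controls. Sel1l, the scaffold of the Hrd1 ubiquitin ligase, averaged 25.2 ± 1.28 and 25.0 ± 0.284 FPKM in cKO and controls, and Edem1, which recognises mannose-trimmed misfolded glycoproteins, 7.15 ± 0.283 and 6.61 ± 0.280 FPKM. Manf, a secreted ER stress protein with neurotrophic activity, was at 29.4, 28.9 and 28.2 FPKM in cKO, against 26.8, 25.9 and 25.0 FPKM in controls (log2 fold change 0.15, SE 0.05, adjusted p = 0.196). No values overlapped. Creld2, another ER stress-induced protein, was at 18.8, 20.2 and 16.2 FPKM in cKO, against 16.1, 17.6 and 16.2 FPKM in controls, with cKO 3 level with the controls.

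Set side by side, the arms had similar medians and different make-up. The median log2 fold change was 0.09 over 16 members of the Atf4 arm (range -0.61 to 0.63) and 0.08 over 17 members of the ER arm (range -0.10 to 0.29), while over all 13612 loci it was -0.0095. The summed level of the ER arm was 908, 882 and 825 FPKM in cKO 1, 2 and 3, against 787, 794 and 770 FPKM in controls 1, 2 and 3, without overlap. That of the Atf4 arm was 524, 532 and 548.5 FPKM in cKO, against 569, 566.5 and 547 FPKM in controls, with cKO 3 above control 3.

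The cKO libraries ordered differently in the arms. As mean deviation of log2(FPKM + 1) from the control mean, the ER arm was at 0.132, 0.118 and 0.0453 in cKO 1, 2 and 3, and at 0.0215, 0.0085 and -0.030 in controls 1, 2 and 3. The Atf4 arm was at 0.027, 0.063 and 0.11 in cKO and at -0.0113, 0.0233 and -0.0119 in controls. Without cKO 3, the library apart from its group, the median of the ER arm was 0.135 and that of the Atf4 arm 0.0367. Among members not yet given without it, leaving out cKO 3 moved the log2 fold change by over 1.5 times in 11. Creld2 was then at 0.22, Hsp90b1 at 0.14, Ern1 at 0.16, Eif2ak3 at 0.084, Herpud1 at -0.13, Canx at 0.0073 and Sel1l at -0.0065. In the Atf4 arm, Ppp1r15a was at 0.29, Sesn2 at 0.067, Mthfd2 at -0.19 and Psph at 0.045. The steps between low values were shared by cKO 3 and control 1, and by the other 4 libraries among themselves. From this pattern, which no label explains, they were taken as a pair of processing sets. Within those 4, a comparison chosen after seeing the data, the medians were 0.142 for the ER arm and 0.0201 for the Atf4 arm. In the 4 libraries with the earlier sample records (controls 1 and 2, cKO 1 and 2) they were 0.113 and 0.0421. The later deposit and the other inferred set hold 1 library of each group, so neither gives a value of its own.

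Further genes of the pathway were read from lists of other members. In the list of eIF2, its exchange factor, kinases and phosphatase, 11 of 13 log2 fold changes were negative (median -0.10), and the genes that passed were the copies of the eIF2 gamma subunit on the sex chromosomes. The groups also differed in Xist and Ddx3y, as given above, so these calls cannot be told apart from sex. Eif2s3y, counted among the negative genes, was at 0.027, 0.0947 and 0.108 FPKM in cKO, against 34.4, 35.8 and 37.2 FPKM in controls (limma adjusted p = 6.24e-08). Eif2s3x, counted among the positive ones, was at 97.2, 95.5 and 102.7 FPKM in cKO, against 75.5, 67.1 and 65.1 FPKM in controls (log2 fold change 0.50, SE 0.07, adjusted p = 0.0385). Added together in each library, the copies gave 97.2, 95.6 and 102.8 FPKM in cKO, against 110.0, 102.9 and 102.3 FPKM in controls. The sums overlapped only in that cKO 3 lay just above control 3, where each copy alone separated the groups. Their means were 98.5 ± 3.76 FPKM in cKO and 105.1 ± 4.29 FPKM in controls. The exchange factor gene Eif2b1 was next by p, at -0.13 (adjusted p = 0.264).

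**Figure D4:**
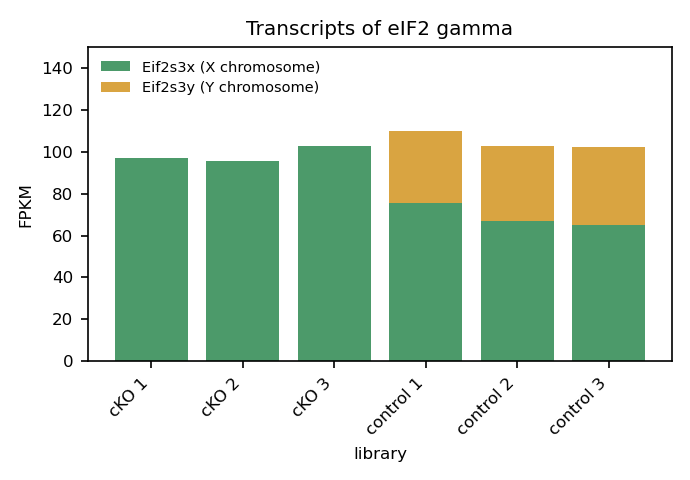
FPKM of the X-linked (green) and Y-linked (yellow) copies of the eIF2 gamma subunit, stacked for each library, cKO left of control. The stacks reach 95.6 to 102.8 FPKM in cKO and 102.3 to 110.0 FPKM in controls, with the Y-linked part at no more than 0.108 FPKM in cKO.

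Other targets of Atf4 were as mixed as the arm itself. Of 21 tested, 14 had positive log2 fold changes (66.7%, against 47% of all loci, median 0.09), and 0 passed over all loci (limma). Before adjustment, 7 higher ones had a p under 0.05 (33.3%, against 7.82% of all loci). So did 3 lower ones of the 21 (against 9.79% of all loci). The 3 with the smallest p were Eif4ebp1, a brake on cap-dependent translation (-0.31), the glycine transporter Slc6a9 (0.25) and the neutral amino acid transporter Slc1a4 (0.20), with adjusted p of 0.143, 0.168 and 0.171. The cytosolic aminoacyl-tRNA synthetases, which Atf4 also drives in part, leaned the other way: 18 of 20 had negative log2 fold changes, all small (median -0.05, range -0.18 to 0.06). Positive ones made up 10%, against 47% of all loci. Tars, Kars and Dars were at -0.18, -0.11 and -0.14, with 0 past the threshold. Before adjustment, 2 of the 20 had a p under 0.05, each lower in cKO (against 9.79% of all loci).

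Beyond the ER arm, a list made up mostly of other Atf6 and Xbp1 targets had log2 fold changes of -0.42 to 0.21. It also holds Mbtps1 and Mbtps2, which act on Atf6, and the factors Creb3, Creb3l1 and Creb3l2, so its counts are not of targets alone. The difference of this list from the arm was not tested. Of 38 tested, 23 had positive log2 fold changes (60.5%, against 47% of all loci), with a median of 0.02, 0 past the threshold and 1 lower gene with a p under 0.05 before adjustment, the protease Mbtps1 that cleaves Atf6 (-0.13). The oxidase Ero1lb and the vesicle coat gene Sec24d were at 0.21 and 0.14. The lowest of the list, Pdia4, was at -0.42 (SE 0.67) and varied widely between libraries. It was at 123.3, 263.6 and 35.1 FPKM in cKO, against 98.15, 169 and 168 FPKM in controls, with overlapping groups. Heat shock genes outside the ER, mostly cytosolic but with the mitochondrial Hspd1 and Hspe1 among them, were split 8 to 8 (median -0.00185). Hspb8 and Hspa1b were at 0.32 and 0.25 and the Hsp90 cofactor Chordc1 at -0.20, with 0 past the threshold. Before adjustment, 3 had a p under 0.05, of which 2 were higher (12.5%, against 7.82% of all loci) and 1 lower (against 9.79%). The highest log2 fold change of the list, 0.49 (SE 0.37) for Dnaja1, rested on 1 library. Dnaja1 was at 171.4 FPKM in cKO 1 and at 60.7 to 64.8 FPKM in all other libraries.

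**Figure D5:**
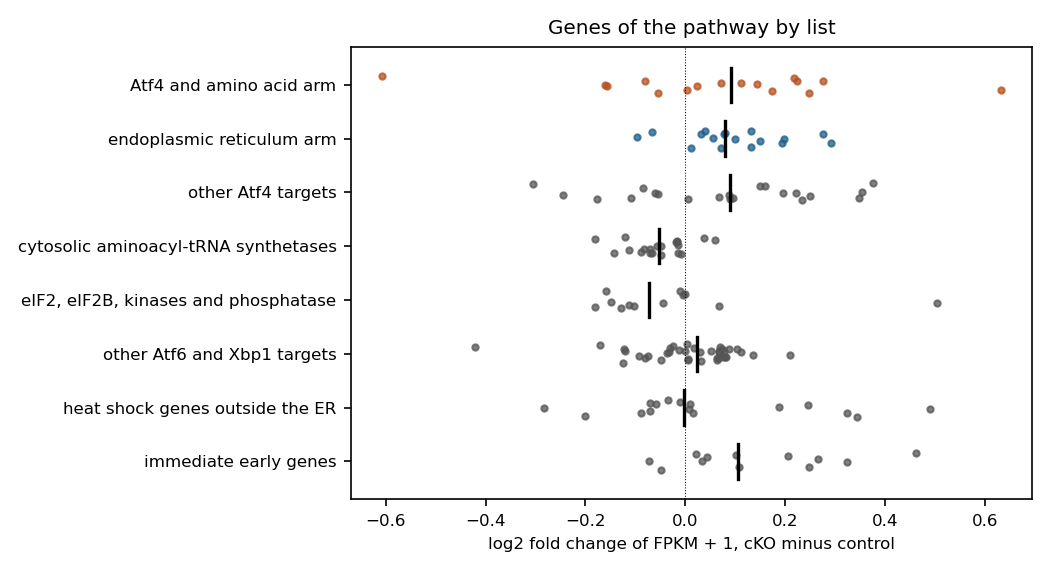
Log2 fold changes of FPKM + 1, cKO minus control (x axis), of the tested genes of each list (points), with the median of the points drawn as a black line. Eif2s3y, at -5.10, is not drawn and not in its list's median line, and of the aminoacyl-tRNA synthetases 18 of 20 lie left of 0.

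Markers of secretory and immune cells were measured beside the ER arm. Of the genes of microglia and macrophages, 11 of 11 tested lay above 0 in log2 fold change, Csf1r passing at 0.48 (adjusted p = 0.0483), with C1qa and C1qc at 0.51 and 0.37 and a summed level of 77.6 to 84.8 FPKM in cKO and 61.3 to 64.2 FPKM in controls. A limma p under 0.05 before adjustment was found in 10, all higher in cKO (90.9%, against 7.82% of all loci). In 10 every cKO library lay above every control library (90.9%, against 10.3% of all loci). Choroid plexus genes, of a highly secretory epithelium, summed to 13.95 to 36.8 FPKM in cKO and 19.2 to 27.4 FPKM in controls, with overlapping groups and log2 fold changes of 0.16, -0.25 and 0.06 for Folr1, Ttr and Otx2. Otx2 was the most abundant of them, and Ttr, of negative sign on the log scale, averaged 4.28 FPKM in cKO and 3.8 FPKM in controls. Of the erythroid genes, the alpha globins Hba-a1 and Hba-a2 shared 2 loci. The first locus was at 1.15 to 2.14 FPKM in cKO, listed at 0 in each control, and passed, while the other was at -0.64, Hbb-bt at -0.66 and the most abundant, Hbb-bs, at -0.17. The endothelial and meningeal values given above stand beside the ER arm too, and no marker of the endothelial, meningeal, microglial or choroid plexus lists was at 0 in all libraries. The part of these cells in the ER-arm values was not tested.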

How the data were processed

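Total RNA of whole cerebellum was extracted with Trizol and made into Illumina TruSeq libraries, per the labels' protocols. CASAVA, TopHat, Cufflinks and build mm10 are named per the submitters' processing notes. The deposited table was taken as FPKM per locus, a unit that no label states and that rests on Cufflinks and on the form of its values. Software versions, annotation, strandedness and any scaling by the authors are not stated in the labels, and the unknown read depth limits the precision of low values. Library sums were 497542 to 524474 FPKM. Columns were matched to samples by title. The description of cKO 1 carries another number than its title.

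Loci that reached 1 FPKM in 3 or more of the 6 libraries were tested on log2(FPKM + 1) with limma 3.58.1 (R 4.3.3, trended two-sided test, Benjamini-Hochberg over all 13612 loci, threshold 0.05), a fit first tested on simulated data. Group values are means ± SD. The members, lists and tests were chosen with earlier results of these data known. The rule named Zeb2, all members, and of each other list the genes past the threshold, filled up to 3 by p, and the most abundant markers. Some further genes of the lists were named beside these. Alternatives were the replicate number as a block, deposit or an inferred processing set as a covariate, leaving out the later deposit or 1 library at a time, another pseudocount, other filters and scalings, small RNA loci left out and robust variance estimation. The second processing set on its own was added after seeing the data. Counts of members by a p under 0.05 before adjustment and by positive log2 fold changes were not among the planned results. Promoter windows and gene coordinates are RefSeq's for GRCm38.p6, the assembly of mm10. Lists and figures used Python 3.11.15, pandas 2.3.3 and matplotlib 3.10.9. Values of some marker genes are not reported here.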

Additional observations from a re-analysis of the deposited data

How the results depend on the processing

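Of the 33 members tested, 25 kept the sign of their log2 fold change under every alternative that tested them (18, or 17 for those below a mean of 5 FPKM), and 3 were called under any, with 3 called when small RNA loci were left out and 3 with robust variance estimation. Sign changes were small. In the first deposit only, Chac1 was at -0.0214, Asns at -0.0331, Canx at -0.034 and Sel1l at -0.0156. In the second processing set only, Atf5 was at 0.00619, Chac1 at -0.00785 and Sel1l at -0.00215. With 1 library left out, the ranges were -0.125 to 0.0122 for Atf5, -0.00612 to 0.368 for Chac1, -0.0113 to 0.129 for Asns, -0.0365 to 0.0449 for Psph, -0.0289 to 0.0838 for Eif2ak3, -0.0101 to 0.102 for Canx, -0.133 to 0.00924 for Herpud1 and -0.013 to 0.052 for Sel1l. The log2 fold change of Zeb2 was -0.766 with small RNA loci left out, where its adjusted p was 0.0473. The Atf4 arm's median was 0.0421 in the first deposit only, 0.0225 at a mean of at least 5 FPKM, 0.0201 in the second processing set only and 0.0367 to 0.128 with 1 library left out. That of the ER arm was 0.142 in the second processing set only and 0.0719 to 0.135 with 1 library left out. Members with a p under 0.05 before adjustment numbered 7 in the first deposit only and 5 (without control 3; 7 without cKO 2) to 12 with 1 library left out. The count of 78 called loci was 15 with the replicate block, 22 with the deposit as a covariate, 28 without a filter, 30 at a mean of at least 5 FPKM, 325 without small RNA loci, 336 with robust variance estimation, 30 in the second processing set only, and 21 (without cKO 1), 27 (without cKO 2), 28 (without control 2), 33 (without control 1) or 44 (without cKO 3) up to 55 with 1 library left out. Equal replicate numbers did not deviate together (r = -0.0268, 0.0373 and 0.0488 across loci). The replicate block changed no other call among the members, 10 of which had a p under 0.05 before adjustment with it. The cause of these shifts was not tested. Read depth is unknown, so the low values of Atf3, Trib3 and Slc7a11 carry a counting error that cannot be given.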

Other observations

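Eif2ak2, the gene of the eIF2 kinase PKR that answers to double-stranded RNA and interferon, varied between libraries without regard to genotype. It was at 18.0, 10 and 21.5 FPKM in cKO 1, 2 and 3, against 20.6, 8.33 and 22.5 FPKM in controls 1, 2 and 3, so that cKO 2 and control 2 lay apart from the other 4 libraries (log2 fold change -0.00099, SE 0.41). The neighbouring kinases of its list were steadier: Eif2ak1 spanned 18.6 to 21.8 FPKM in cKO and 20.4 to 24.3 FPKM in controls, and Eif2ak4 8.66 to 9.02 FPKM in cKO and 8.84 to 10.2 FPKM in controls. Eif2ak2 was singled out after its values were seen, and the cause was not tested.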
